A study of Mus musculus with 12 samples.

Results

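The genes described here are 10 parts of the machinery through which cyclic AMP and calcium drive transcription: the CREB family transcription factors Creb1, Crem and Atf1, the CRTC coactivators Crtc1, Crtc2 and Crtc3, the acetyltransferases Crebbp (CBP) and Ep300 (p300), and the salt-inducible kinases Sik2 and Sik3. They were chosen by name, as genes of the pathway in which NONO is known as a partner of the CRTC proteins, and are 10 of the 23329 genes in the deposited tables. Polyadenylated RNA from the hippocampus of adult C57BL/6 mice was sequenced in 4 groups of 3 libraries: wild type (WT) at CT10, NONO knockout (KO) at CT10, WT at CT22 and KO at CT22. The labels do not spell out CT, and the knockout allele is not described further. All 10 genes passed the filter on low counts, as did 14131 genes in all, and they are represented by 22 of the 30383 transcripts counted.

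CREB1, CREM and ATF1 bind the cyclic AMP response element in gene promoters, and phosphorylation of CREB by protein kinase A or by calcium-dependent kinases lets it recruit CBP and p300, which acetylate histones. The CRTC proteins are a second arm: the SIK kinases keep them phosphorylated and in the cytoplasm, and cyclic AMP or calcineurin releases them to the nucleus, where they join CREB. In the hippocampus this pathway is known for activity-dependent transcription and long-term memory, and CRTC1 is the CRTC protein best known from neurons.

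The labels were checked first against the targeted gene. Nono had 1147 to 1814 counts in the 6 WT libraries and 0 to 4 counts in the 6 KO libraries. Library totals ran from 4435606 to 10911046 estimated counts. All 15 markers of hippocampal neurons were present in every library, with a summed level of 3246 to 3908 CPM (counts relative to library size, in these marker sums without TMM scaling). Choroid plexus markers, from tissue next to the hippocampus, summed to between 227 and 5406 CPM by library, and 14 of 14 had a KO value above 0, none of them past the test. Markers of several other cell types and neighbouring regions also lay mostly on one side in KO, with 0 called by edgeR: over both CT labels 12 of 12 microglial markers were below 0 (median log2 change -0.12), while 11 of 12 meningeal (0.63) and 9 of 9 thalamic and habenular markers (0.43) were above. Oligodendrocyte markers changed side with the label, with 10 of 10 below 0 at CT22 (-0.22) and 9 of 10 above at CT10 (0.16). Without the 2 clock-displaced libraries described below, 9 of 10 were above over both labels (0.15). At CT22, 8 of 8 striatal markers were above 0 (0.33), with sums of 156 to 189 CPM in WT and 191 to 315 CPM in KO. Over both labels 10 of 14 astrocyte markers were below 0 (-0.12) and 5 of 6 blood markers above (1.02). DESeq2 called 1 astrocyte marker over both labels, against 0.156% of all genes. At CT22 it called 2 astrocyte markers and 1 each of the striatal, blood and hippocampal neuron lists, against 0.317% of the genes given an adjusted p. Of all these markers, only 2 of the blood list were at 0 in any library. The part of the markers in the results below was not tested. Without the library of highest choroid plexus level in each group, 7 of the 10 genes described here were above 0 in KO over both labels. At CT10 it was 2 and at CT22 it was 9. The CT22 values then ran from -0.16 to 0.26, with Creb1 at 0.18, Ep300 at 0.19 and Sik2 at 0.09. That fit left out WT CT22 replicate 3, which also had the lowest length index, a measure described below (-0.40). Without WT CT22 replicate 3 alone, Ep300 at CT22 was 0.16 and Sik2 0.10. Choroid plexus level and length index cannot be told apart in that fit. In 2 KO libraries the clock genes stood with the other CT label. The library labelled KO CT10 replicate 3 had 33.6 CPM (here and from here on TMM-scaled) of the clock output gene Dbp, against at least 70.5 CPM in WT at CT10, and the library labelled KO CT22 replicate 1 had 90.9 CPM, against at most 59.6 CPM in WT at CT22. These 2 libraries were left out in a further fit, whose values are given beside the KO values of the 10 genes. In bulk tissue, fewer cells of a type and less RNA per cell cannot be told apart.

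Per transcript length, Crtc1 was the most abundant of the 10 genes in the 12 libraries. Its deposited TPM (a level corrected for transcript length) was 112 at the lowest, 136 at the median and 172 at the highest. Sik3 followed with 56.1, 61.7 and 73.0 TPM, and Crtc2 with 20.7, 27.0 and 32.6 TPM. The ranges of these 3 genes did not overlap. Within the CRTC family, Crtc1 exceeded Crtc2 by a median factor of 5.12 (3.74 to 5.57 over the 12 libraries) and Crtc3 by 9.17 (7.60 to 10.5). Sik3 exceeded Sik2 by a median factor of 4.38 (3.77 to 6.78).

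The acetyltransferases came next, Ep300 with 15.6, 21.5 and 26.8 TPM and Crebbp with 13.3, 18.0 and 22.5 TPM. Their ranges overlapped, yet Crtc2 was above Ep300 and Ep300 above Crebbp in 12 of 12 libraries. Crtc3 (median 14.7 TPM), Sik2 (14.1 TPM), Creb1 (13.0 TPM), Atf1 (12.2 TPM) and Crem (11.8 TPM) closed the order. Neighbours among these 5 genes kept their order in only 7 to 9 of 12 libraries, so neighbours are not distinguished beyond their spread. Further apart in the order, Crtc3 was above Atf1 and above Crem in every library. By median, the 3 transcription factors were the lowest of the set and a coactivator the highest.

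**Figure D1:**
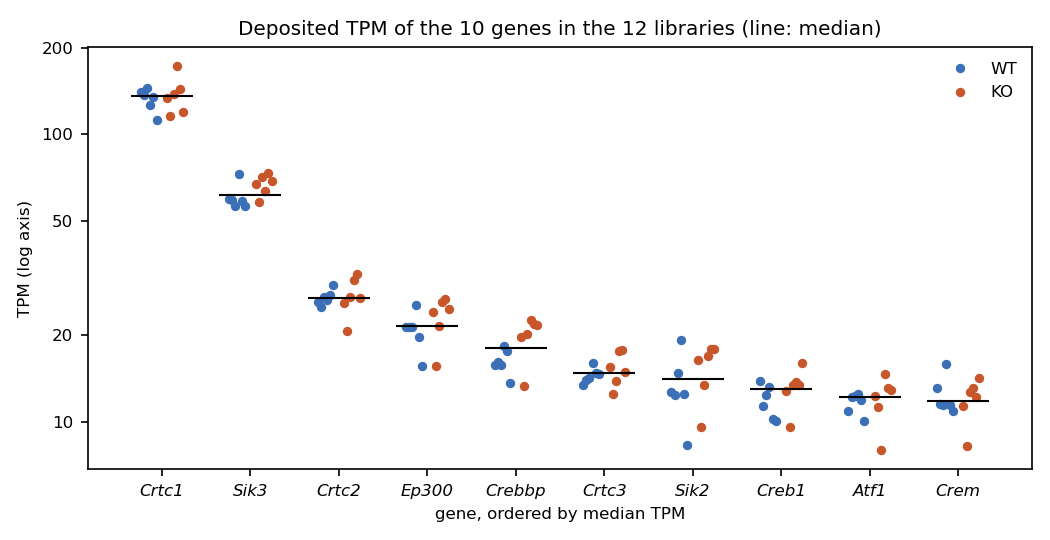
Deposited TPM (log axis) of the 10 genes, ordered by median, in the 6 WT and 6 KO libraries; each point is a library and the line is the median of 12. Crtc1 and Sik3 stand clear of the other 8 genes, while the 5 genes at the right overlap.

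No change of the 10 genes in NONO KO passed the test. Averaged over both CT labels, 8 had a value above 0 and 2 below, with log2 changes of KO against WT from -0.07 (Crem) to 0.25 (Crebbp), and 0 of 10 passed a Benjamini-Hochberg adjusted p of 0.05 in edgeR's quasi-likelihood test or in DESeq2; edgeR called 3 of all 14131 genes (0.0212%) and DESeq2 22 (0.156%). At an unadjusted p under 0.05 the count was 1 of 10, Crebbp, against 6.35% of all genes. At CT10, 3 values were above 0 and 7 below, 0 of 10 were called by either tool and 0 had an unadjusted p under 0.05; 1 of all genes, Nono, was called by edgeR (0.00708%) and 3 by DESeq2 (0.0212%), and 3.09% had an unadjusted p under 0.05. At CT22, 9 were above 0 and 1 below, and 0 of 10 were called by either tool. Over all genes edgeR called 0.0142%. DESeq2 called 0.317% of the 9473 genes to which it gave an adjusted p, and Crem and Atf1 were not among those 9473. At CT22, 2 of 10, Crebbp and Creb1, had an unadjusted p under 0.05, against 10.9% of all genes. The median change of the 10 genes was 0.07 over both labels, -0.08 at CT10 and 0.16 at CT22, where the median of all genes was 0.01, 0.00 and 0.00. Single libraries moved these counts. Without KO CT10 replicate 2, the CT10 values were 7 above 0 and 3 below, with a median of 0.04. Without KO CT22 replicate 1, the CT22 values were 7 above and 3 below, with a median of 0.10, and without WT CT22 replicate 3 the CT22 median was 0.11. Over both labels the median ran from 0.03 (without KO CT10 replicate 1) to 0.10 (without KO CT10 replicate 2). Without the 2 clock-displaced libraries, 7 genes were above 0 and 3 below over both labels (median 0.07), 4 and 6 at CT10 (-0.06), and 7 and 3 at CT22 (0.10). These comparisons share libraries. The 95% intervals give the sizes that remain compatible with each gene: over both labels they reached at most -0.32 (Crem) and 0.51 (Sik2).

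**Figure D2:**
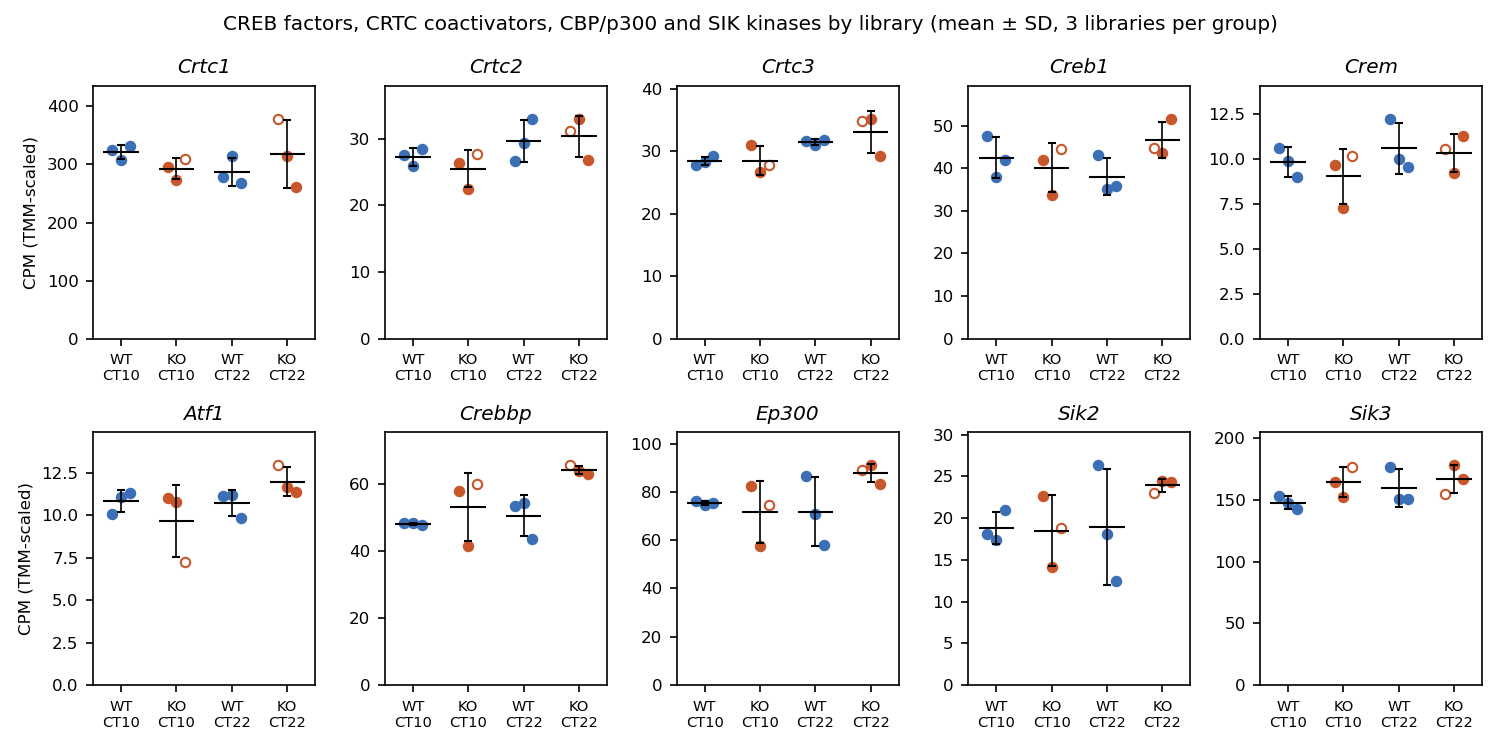
CPM of each gene in the 12 libraries, by group, with mean and SD of 3 libraries; each panel has its own axis from 0, and open symbols mark the 2 KO libraries whose clock genes stood with the other CT label. At CT22 all KO libraries lie above all WT libraries for Creb1, Atf1 and Crebbp, and at CT10 for none.

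Among the acetyltransferases, Crebbp gave the highest KO value of the set over both labels and at CT22, while at CT10 Sik3 was slightly above it (0.16 against 0.15). Crebbp (chr16:4084048-4213404, mm10, minus strand, 31 exons) had 48.4, 48.3 and 47.7 CPM in WT at CT10 and 57.9, 41.6 and 60.0 CPM in KO at CT10. At CT22 it had 53.6, 54.5 and 43.6 CPM in WT and 65.6, 63.9 and 63.2 CPM in KO. Thus the KO libraries lay above WT without overlap at CT22, while at CT10 KO replicate 2 was the lowest of all 12 libraries. The log2 change was 0.25 ± 0.09 (SE) over both labels (95% interval 0.06 to 0.43, edgeR adjusted p = 0.694) and 0.35 ± 0.12 at CT22 (0.08 to 0.61, adjusted p = 0.401). Neither passed the threshold. Without the 2 clock-displaced libraries the values were 0.19 (adjusted p = 0.803) and 0.32 (adjusted p = 0.571).

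Ep300, the paralogue of Crebbp (chr15:81586214-81652077, plus strand, 31 exons), had 76.4, 74.7 and 75.5 CPM in WT and 82.6, 57.4 and 74.7 CPM in KO at CT10. At CT22 the WT libraries were spread over 86.5, 70.8 and 58.1 CPM, and the KO libraries had 89.0, 91.0 and 83.5 CPM, so the groups overlapped. The log2 change was -0.07 at CT10 (95% interval -0.37 to 0.22) and 0.29 at CT22 (-0.005 to 0.58, adjusted p = 0.464). The CT22 value was 0.16 without WT CT22 replicate 3, 0.44 without WT CT22 replicate 1 and 0.27 without the 2 clock-displaced libraries. Both acetyltransferases were lowest in the same libraries: KO CT10 replicate 2 and WT CT22 replicate 3 held the lowest 2 values of each gene.

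None of the CREB family transcription factors passed the test, and Creb1 had the highest value of the 3 at CT22. Creb1 (chr1:64532804-64604548, plus strand) had 47.7, 37.9 and 42.0 CPM in WT and 42.0, 33.6 and 44.6 CPM in KO at CT10, which overlap. At CT22 it had 43.0, 35.1 and 35.8 CPM in WT and 44.7, 43.7 and 51.6 CPM in KO. There the lowest KO library exceeded the highest WT library by 0.678 CPM. The log2 change at CT22 was 0.30 ± 0.13 (95% interval 0.03 to 0.57, adjusted p = 0.423), 0.33 without the 2 clock-displaced libraries, and -0.08 at CT10 (-0.35 to 0.19).

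Atf1, a CREB relative that forms dimers with CREB1 (chr15:100227859-100261248, 7 exons), ranged from 9.81 to 11.3 CPM in the 6 WT libraries and from 7.23 to 12.9 CPM in the 6 KO libraries. Its lowest value was in the library labelled KO CT10 replicate 3 and its highest in KO CT22 replicate 1, the 2 libraries whose clock genes stand apart. The log2 change was 0.17 at CT22 (95% interval -0.17 to 0.51) and 0.10 without those libraries; at CT10 it was -0.17 and 0.01. Crem, which encodes activators and repressors from 1 gene on chromosome 18, was low, with 41 to 122 counts a library. It ranged from 8.96 to 12.2 CPM in WT and from 7.27 to 11.2 CPM in KO, with a log2 change over both labels of -0.07 (-0.32 to 0.18), and -0.12 without the clock-displaced libraries.

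Counts of genes without overlap put the CT22 pattern in scale. At CT22, 3 of 10 genes (Creb1, Atf1 and Crebbp) had all KO libraries above all WT libraries, against 7.25% of all genes tested, and 0 had all below, against 6.49%. At CT10 the count was 0 in either direction, against 4.9% of all genes higher and 5.43% lower. The count at CT22 is set beside transcript length after the other genes.

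The CRTC coactivators, the proteins to which NONO is known to bind, had KO values close to 0 over both labels. Crtc1 (chr8:70382358-70439573, minus strand, 14 exons) had 325, 308 and 333 CPM in WT and 296, 273 and 310 CPM in KO at CT10. At CT22 it had 279, 314 and 269 CPM in WT and 379, 315 and 261 CPM in KO. KO CT22 replicate 1 was the highest and KO CT22 replicate 3 the lowest of all 12 libraries, so the KO group at CT22 spans the whole range. Over both labels the log2 change was 0.01 ± 0.08 (95% interval -0.16 to 0.18, adjusted p = 0.992). Without the 2 clock-displaced libraries it was -0.09. At CT10 it was -0.14 (95% interval -0.38 to 0.11), and it ran from -0.18 to -0.09 in the 21 alternative fits. At CT22 it was 0.15, -0.01 without KO CT22 replicate 1 and 0.27 without KO CT22 replicate 3, so single KO libraries set that value. The Crtc1 value over both labels thus averages a value below 0 at CT10 and a value above 0 at CT22.

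Crtc2, the CRTC protein best known from liver (chr3:90254281-90264125, plus strand, 14 exons), ranged from 25.8 to 32.9 CPM in WT and from 22.4 to 32.9 CPM in KO. Its log2 change over both labels was -0.03 (95% interval -0.21 to 0.15), and -0.08 without the clock-displaced libraries. Crtc3 (chr7:80586632-80688877, minus strand, 15 exons) had 27.9, 28.2 and 29.2 CPM in WT at CT10 and 31.6, 31.0 and 31.8 CPM in WT at CT22, which do not overlap. In KO it ranged from 26.7 to 35.2 CPM, and its log2 change over both labels was 0.04 (-0.11 to 0.19), and 0.02 without the clock-displaced libraries. The intervals of the 3 CRTC genes over both labels all lay within -0.21 and 0.19 on the log2 scale.

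Of the kinases that restrain the CRTC proteins, Sik2 varied most between libraries. Sik2 (chr9:50892801-51009073, minus strand, 16 exons) had 18.1, 17.4 and 21.0 CPM in WT and 22.7, 14.1 and 18.8 CPM in KO at CT10. At CT22 the WT libraries differed by up to 2.11-fold, at 26.3, 18.1 and 12.5 CPM, around KO libraries at 23.0, 24.4 and 24.3 CPM. The log2 change at CT22 was 0.34 ± 0.22 (95% interval -0.15 to 0.82, adjusted p = 0.577). It was 0.10 without WT CT22 replicate 3 and 0.64 without WT CT22 replicate 1, so single WT libraries set its size; without the clock-displaced libraries it was 0.36. Sik3 (chr9:46012820-46224194, plus strand, 25 exons) had 153, 148 and 142 CPM in WT and 165, 152 and 177 CPM in KO at CT10. At CT22 it had 177, 151 and 151 CPM in WT and 155, 178 and 167 CPM in KO. WT CT22 replicate 1 stood apart from the other 5 WT libraries, and the groups overlapped at both labels. The log2 change over both labels was 0.11 ± 0.06 (-0.03 to 0.24, adjusted p = 0.814), and 0.10 without the clock-displaced libraries.

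**Figure D3:**
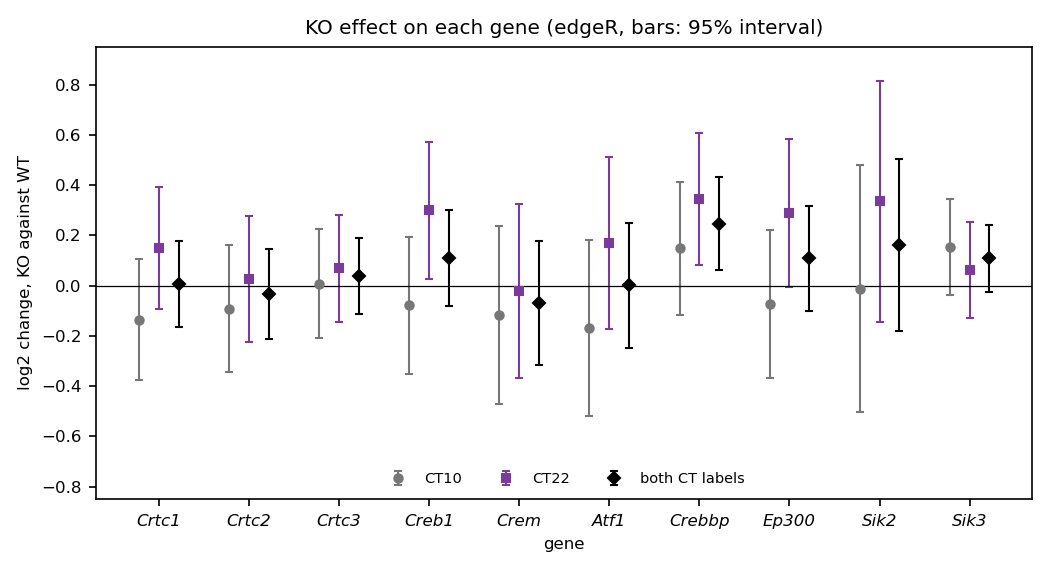
Log2 change of KO against WT for each gene at CT10, at CT22 and over both labels, with 95% intervals from edgeR. The CT22 intervals of Creb1 and Crebbp lie above 0 before adjustment over all genes, and 0 of the 30 values passed it.

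Transcript length moved with the CT22 values. Across all genes tested, the median log2 change of KO against WT at CT22 was -0.11 for genes under 2 kb, -0.01 at 2 to 4 kb, 0.08 at 4 to 6 kb, 0.16 at 6 to 8 kb and 0.28 over 8 kb. At CT10 the same medians lay between -0.02 and 0.03. Ep300 (8749 bases), Creb1 (8372 bases) and Crebbp (7507 bases) are the longest of the 10 transcripts, and they held 3 of the 4 highest CT22 values; the other was Sik2, at 3552 bases. Among all genes over 8 kb, 32.4% had all KO libraries above all WT libraries at CT22, among those of 6 to 8 kb 17.5%, among those of 4 to 6 kb 9.68%, among those of 2 to 4 kb 5.27%, and among those under 2 kb 2.47%. Of the 3 genes without overlap at CT22, Creb1 and Crebbp fall in the upper classes, and Atf1, at 2329 bases, in the class of 2 to 4 kb. The share over 8 kb was several times that over all genes. Set against the median of its length class at CT22, Creb1 was 0.02 higher, Ep300 0.01, Crebbp 0.18, Atf1 0.18 and Sik2 0.35, while Sik3 was 0.10 lower (-0.10) and the other 4 genes lay within 0.06.

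The length pattern followed libraries as well as genotype. A length index was taken for each library, as the median log2 deviation from the 12-library mean over genes above 6000 bases minus that over genes under 2000 bases. In WT it was 0.05, 0.02 and -0.09 at CT10 and 0.09, -0.09 and -0.40 at CT22. In KO it was 0.13, -0.31 and 0.06 at CT10 and 0.25, 0.10 and 0.18 at CT22. KO CT10 replicate 2 and WT CT22 replicate 3, which held the lowest Crebbp and Ep300 values, had the lowest index. At CT22 every KO library had a higher index than every WT library, so genotype and index cannot be told apart there. With the index as a covariate, a fit chosen after seeing the data, the CT22 log2 change was 0.09 ± 0.10 for Crebbp, 0.11 ± 0.13 for Creb1, -0.016 ± 0.09 for Ep300 and -0.11 ± 0.17 for Sik2. In that fit 6 of the 10 genes were above 0 and 4 below at CT22, and 4 above and 6 below over both labels.

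**Figure D4:**
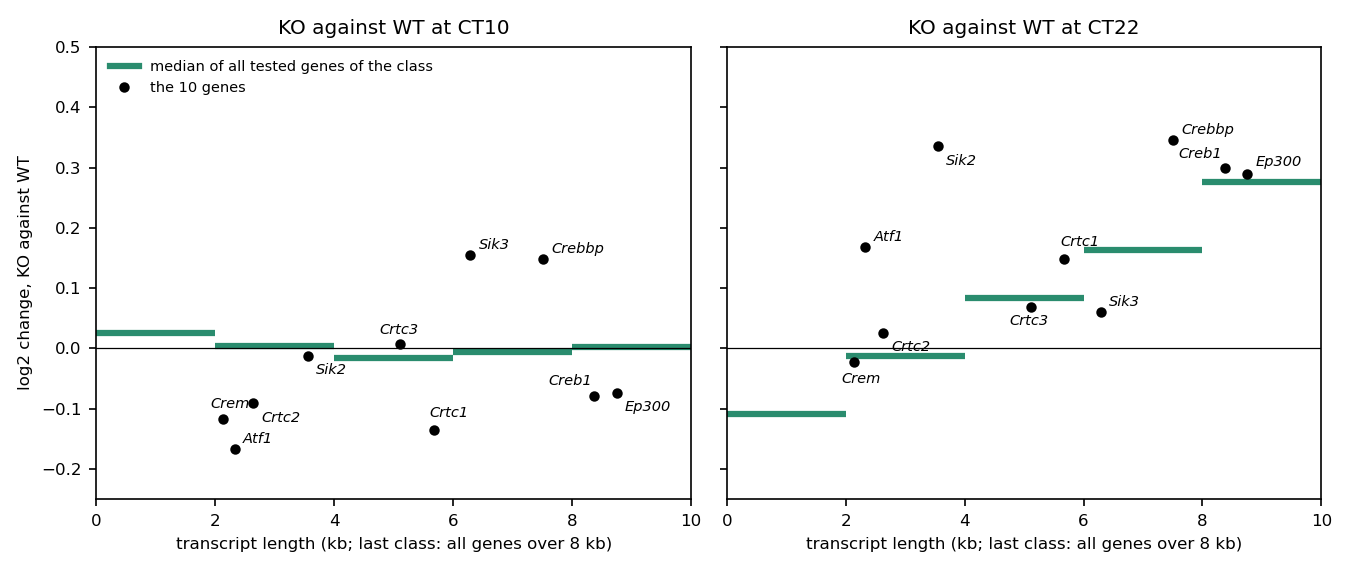
Log2 change of KO against WT at CT10 and CT22 against transcript length in kb; green bars are the median of all tested genes of each length class and black points the 10 genes. At CT22 the class medians climb from -0.11 to 0.28 and most of the 10 genes lie near their class, with Sik2, Atf1 and Crebbp above it; at CT10 the medians are flat.

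Whether the effect of the knockout differed between CT labels was tested as an interaction. By that test 0 of the 10 genes were called by edgeR or DESeq2 and 0 had an unadjusted p under 0.05; over all genes either tool called 0 (0%), with 6.09% at an unadjusted p under 0.05. Creb1 had the highest difference, 0.38 (95% interval -0.01 to 0.76, adjusted p = 0.737), and Sik3 the lowest, -0.09 (-0.36 to 0.18). The values seen at CT22 were therefore not shown to differ from those at CT10.

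Between the CT labels within a genotype, no gene of the set was called either. In WT, 6 genes were above 0 at CT22 against CT10 and 4 below, from -0.16 (Crtc1) to 0.15 (Crtc3), with 0 of 10 called by either tool and 0 at an unadjusted p under 0.05 (all genes 0% by edgeR, 0.0283% by DESeq2, and 6.76% unadjusted). The split was 4 above and 6 below without WT CT22 replicate 1 and 8 and 2 without WT CT22 replicate 3. Crtc3 was the 1 gene whose WT libraries at CT22 all lay above those at CT10, against 7.69% of all genes, and for 0 they all lay below (all genes 8.54%). In KO, 10 of 10 were above 0, from 0.01 (Sik3) to 0.36 (Sik2), with 0 of 10 called by either tool and 1, Crebbp, at an unadjusted p under 0.05 (all genes 0% by either tool, and 3.16% unadjusted). Atf1, Crebbp, Ep300 and Sik2 had all KO libraries at CT22 above those at CT10, against 4.3% of all genes, and 0 had all below (all genes 3.66%). This comparison shares its KO libraries at CT22 with the comparison of KO and WT, and the length index of KO was higher at CT22 in 2 of 3 libraries than in any KO library at CT10. Without the 2 clock-displaced libraries, 10 of 10 were above 0 in KO, from 0.02 to 0.39, on 2 libraries a group. It was 9 of 10 without KO CT10 replicate 2, where the median went from 0.23 to 0.14, and 9 of 10 without KO CT22 replicate 1 or 2. With the length index as a covariate it was also 9 of 10, with a median of 0.09, and Sik2 went from 0.36 to 0.05, Ep300 to 0.08 and Crebbp to 0.10.

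Creb1 was counted as 3 transcripts that differ by which exons they hold. The longest form has a coding exon of 42 bases (chr1:64559727-64559768) that the others lack, and the shortest lacks an exon of 122 bases (chr1:64550849-64550970). The exon of the longest form tells apart the forms known as CREB alpha (with it) and CREB delta (without it). It is shown because it sets the longest form apart from the others (plus strand of GRCm38, from the GENCODE transcript, in lower case throughout).
Creb1 alternative exon: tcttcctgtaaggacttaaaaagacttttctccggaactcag
The form without it and with the 122-base exon (8 exons) took 62.7% ± 9.35 of the Creb1 counts (SD, n = 12), the form with it (9 exons) 24.0% ± 10.4 and the shortest form (7 exons) 13.3% ± 6.27. The 8-exon form was the highest in 12 of 12 libraries. In WT the main form had a share of 64.8% ± 10.4 (SD, n = 6) and in KO 60.5% ± 8.52 (SD, n = 6). Shares of the 42-base exon form ranged from 9.76% to 40.7% in WT and from 7.59% to 36.2% in KO, which overlap almost wholly. Without the clock-displaced libraries the main form had 61.1% ± 9.20 in KO (SD, n = 4).

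Crem was counted as 11 transcripts, most of them with few counts, so they were grouped by start. The 2 short transcripts of 3 and 4 exons that start at the internal promoter, the type known as ICER, an inducible repressor, took 64.6% ± 9.57 of the Crem counts (SD, n = 12), from 47.6% to 81.8% by library. The 8 transcripts of the first promoter took 26.4% ± 8.85 and 1 other internal start 9.01% ± 7.49. The internal promoter share was 68.2% ± 9.05 in WT and 60.9% ± 9.36 in KO (SD, n = 6 each), a difference smaller than the spread, resting on 25 to 100 counts a library; without the clock-displaced libraries it was 60.0% ± 9.03 in KO (SD, n = 4). None of the tested transcripts of these genes was called: over both labels edgeR called 4 of 18021 transcripts (0.0222%), and its test of transcript shares called 0 of 6607 (0%), with 274 at an unadjusted p under 0.05 (4.15%). Within Creb1 the lowest share p was 0.586, and within Crem 2 first-promoter transcripts of 45 and 51 counts in total had an unadjusted share p of 0.0421 and 0.0192 (adjusted p at least 0.825). The authors estimated the division of reads among transcripts that share most of their sequence, so shares of single forms carry that uncertainty as well.

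**Figure D5:**
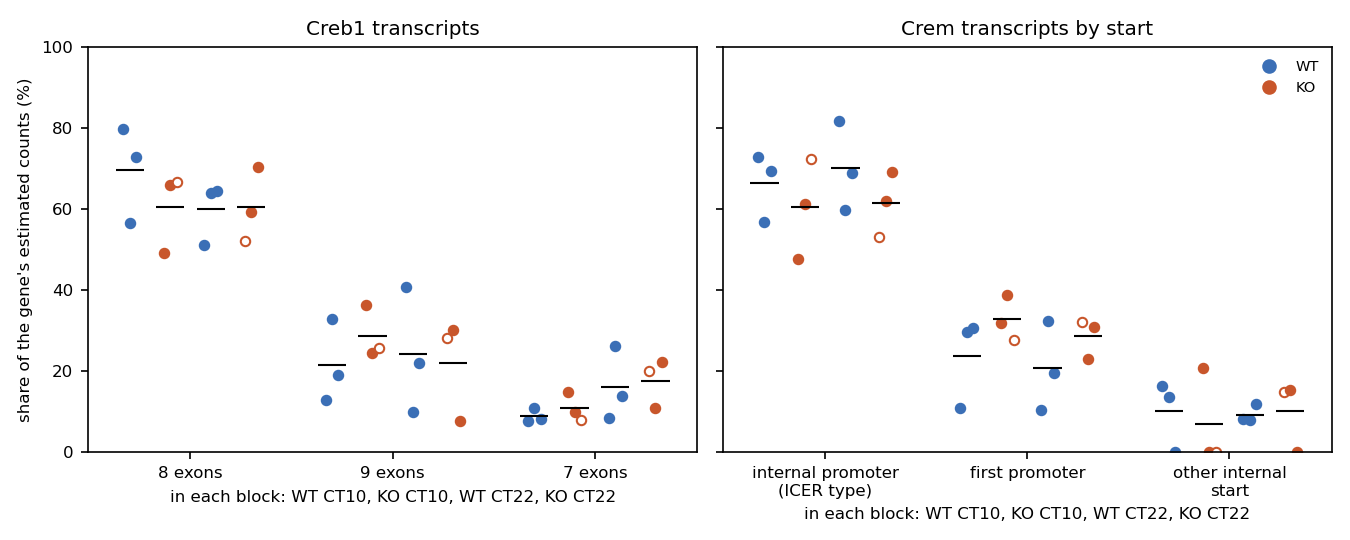
Share of each Creb1 transcript (named by its number of exons) and of Crem transcripts grouped by start, in percent of the gene's estimated counts; each point is a library, lines are group means, and open symbols are the clock-displaced KO libraries. The 8-exon Creb1 form and the internal promoter of Crem hold the largest share in 12 of 12 libraries, and WT and KO points overlap.

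The promoters were searched for the element that the CREB family binds, since CREB family genes and SIK genes can themselves be CREB targets. RefSeq windows (GRCm38.p6) of the 250 bases before the annotated start were found for 8 of the 10 genes. Crtc2 and Crem had no window, so the promoters of Crem, the internal one included, were not searched. The full element TGACGTCA occurred in 0 of these 8 windows and in 1.55% of all 32851 windows. The half-site TGACG, on either strand (CGTCA) and contained in the full element, occurred in 2 of 8, Sik3 and Atf1, and in 17.8% of all windows. Sik3 had 3 half-sites, which begin 133, 116 and 57 bases before the start, and Atf1 had 1; 3 or more are found in 0.688% of all windows. The Sik3 window is shown with that of Nr4a1, an immediate early gene and textbook CREB target that had 4, on the gene strand with half-sites in capitals (Sik3 chr9:46012570-46012819, Nr4a1 chr15:101266596-101266845, both plus strand).
Sik3 promoter: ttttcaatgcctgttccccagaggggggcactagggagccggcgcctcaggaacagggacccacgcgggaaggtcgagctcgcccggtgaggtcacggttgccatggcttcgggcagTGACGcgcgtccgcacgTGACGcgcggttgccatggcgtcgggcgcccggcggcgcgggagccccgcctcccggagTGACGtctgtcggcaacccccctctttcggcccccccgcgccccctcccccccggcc
Nr4a1 promoter: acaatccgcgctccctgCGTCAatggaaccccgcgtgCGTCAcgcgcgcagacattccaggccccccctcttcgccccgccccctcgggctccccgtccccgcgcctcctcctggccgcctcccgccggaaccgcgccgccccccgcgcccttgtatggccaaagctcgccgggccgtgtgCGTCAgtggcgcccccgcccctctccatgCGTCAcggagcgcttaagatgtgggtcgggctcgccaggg
The half-sites are a match of letters and no measure of binding. In the same libraries Nr4a1 had 71.7 to 102 CPM in WT and 45.9 to 117 CPM in KO, with a log2 change over both labels of -0.08 (95% interval -0.60 to 0.43), and Sik3, described above, also did not pass the test.

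The genes downstream of CREB gave no call either. Of 42 listed CREB target genes, which include immediate early genes and neuropeptides, 42 were tested and 0 were called over both labels, at CT10 or at CT22 by edgeR or DESeq2; at an unadjusted p under 0.05 the counts were 3, 3 and 4 of 42, where all genes had 6.35%, 3.09% and 10.9%. Over both labels 22 were above 0 and 20 below, with a median log2 change of 0.02, where all genes had 0.01. Without the clock-displaced libraries 17 were above 0 and 25 below (median -0.04), and without the library of highest choroid plexus level in each group 28 and 14 (0.09), with 0 called in either. At CT10, 22 were above 0 and 20 below (0.01), and without the clock-displaced libraries 15 and 27 (-0.11), with 0 called. In that last fit 8 of 42 had an unadjusted p under 0.05, and the share over all genes was not taken there. Fos, an immediate early gene, ranged from 14.1 to 24.9 CPM in WT and from 6.12 to 30.0 CPM in KO. Its log2 change was 0.03 (95% interval -0.68 to 0.75), an interval several times wider than those of the CREB and CRTC genes. Bdnf, a neurotrophin, had 0.10 (-0.25 to 0.46) and Per1, a clock gene with CREB elements, -0.03 (-0.17 to 0.12). These values are over both labels. At CT10 and CT22 the values were -0.07 and 0.14 for Fos, -0.10 and 0.31 for Bdnf, and -0.20 and 0.14 for Per1. Neither tool called any of them. The difference of the Per1 values between the labels was 0.34 (95% interval 0.04 to 0.63, edgeR adjusted p = 0.737).

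Upstream of CREB, the list of cyclic AMP and PKA genes (30 tested) had 18 above 0 and 12 below over both labels, with 0 called by either tool and 5 of 30 at an unadjusted p under 0.05, against 6.35% of all genes. The catalytic subunits of protein kinase A, Prkaca and Prkacb, had log2 changes of 0.03 (95% interval -0.08 to 0.14) and 0.08 (-0.10 to 0.26). CREB kinases and phosphatases (25 tested) had 12 above 0 and 13 below, with 0 called by either tool and 2 of 25 at an unadjusted p under 0.05, and 7 above and 18 below without the clock-displaced libraries. Among them Camk4, the nuclear calcium-dependent kinase that phosphorylates CREB, had 115, 113 and 96.7 CPM in WT and 158, 135 and 150 CPM in KO at CT22. Those groups did not overlap, and the CT22 log2 change was 0.45 ± 0.10, with an edgeR adjusted p of 0.353 and a DESeq2 adjusted p of 0.0227. At CT10 the log2 change of Camk4 was -0.09 and over both labels 0.18, called by neither tool. Its transcript has 12331 bases, and the median of all genes over 8 kb at CT22 was 0.28. With the length index as a covariate the CT22 change of Camk4 was 0.27 (edgeR adjusted p = 1.00), and without the clock-displaced libraries 0.39 (adjusted p = 0.524). DESeq2 also called 2 cyclic AMP genes at CT22, the phosphodiesterase Pde10a (0.69, adjusted p = 0.0248) and the anchoring protein Akap9 (0.51, adjusted p = 0.0453). Neither was called by edgeR. DESeq2 called 0.317% of the 9473 genes to which it gave an adjusted p at CT22. With the length index as a covariate the CT22 values of Pde10a and Akap9 were 0.33 and 0.30. Pde10a is also 1 of the 8 striatal markers, all of which were above 0 at CT22, and the part of striatal RNA in its value was not tested; without the library of highest choroid plexus level in each group it was 0.51.

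The regulators of SIK and CRTC, among them calcineurin subunits, 14-3-3 proteins and the SIK kinase LKB1 (Stk11), had 24 genes tested, 11 above 0 and 13 below, with 0 called by either tool and 0 at an unadjusted p under 0.05. Sik1, the inducible member of the SIK family, ranged from 13.3 to 21.9 CPM in WT and from 11.1 to 21.1 CPM in KO. Its log2 change was -0.13 over both labels (95% interval -0.43 to 0.17), -0.37 at CT10 and 0.11 at CT22, called at neither. The calcineurin catalytic subunit Ppp3ca had -0.09 (-0.37 to 0.19). Other CREB and ATF family genes (16 tested) had 8 above 0 and 8 below, with 0 called by either tool and 1 at an unadjusted p under 0.05. The 6 lists were chosen with earlier results of these data known, so their share of low p-values is no independent measure of the pathway. Across the 6 lists, 16 of 156 tested genes (10.3%) had an unadjusted p under 0.05 over both labels, against 6.35% of all genes, and 1 was called by edgeR.

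That gene was Sfpq, the partner of NONO in the DBHS family, which is in the list of other coactivators and CREB partners (19 tested, 16 above 0 and 3 below). Of the 19, 5 had an unadjusted p under 0.05 over both labels and 6 at CT22, against 6.35% and 10.9% of all genes. This list so held 5 of the 16 genes counted across the 6 lists. Without the clock-displaced libraries 12 were above 0 and 7 below, with 4 at that p, and the share over all genes was not taken there. Sfpq had 138 to 157 CPM in WT and 164 to 209 CPM in KO, without overlap. Over both labels it rose by 0.36 ± 0.05 on the log2 scale (edgeR adjusted p = 0.0398). The change was 0.19 ± 0.08 at CT10, which edgeR did not call, and 0.53 ± 0.08 at CT22 (edgeR adjusted p = 0.0349). Its call over both labels was lost in 10 of 12 fits that each left out 1 library. At CT22 no gene of the 6 lists was called in 9 of 12 such fits. Without the 2 clock-displaced libraries the change over both labels was 0.33 (adjusted p = 0.253). For comparison, the lowest edgeR adjusted p of the 10 genes over both labels was 0.694, for Crebbp.

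The genes most like 4 of the members across the 12 libraries were mostly long transcripts. For Crebbp they were Herc2 (Pearson r = 0.953, Spearman rho = 0.986), Tnrc6b (0.953 and 0.958) and Gm15800 (0.950 and 0.930), of 15346 to 17173 bases. For Creb1 they were Dnajc1 (0.944 and 0.930), Chd6 (0.907 and 0.839) and Plekhh2 (0.906 and 0.965). Crtc1 was most like Foxk1 (0.962 and 0.916), Pitpnm2 (0.943 and 0.902) and Mast3 (0.939 and 0.860), and Sik3 most like Satb1 (0.947 and 0.867), Tshz2 (0.942 and 0.895) and Strbp (0.941 and 0.895). These are the highest values of log2 CPM among 11696 genes and a description of 12 libraries that share depth and length index; no other member was among them.

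In the authors' deposited table, which compares KO with WT once, the adjusted p of the 10 genes ran from 0.679 (Crebbp, log2 ratio 0.24) to 1, and 0 were under 0.05.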

How the data were processed

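The labels give groups by sample title and do not say whether each library is its own animal; the p-values therefore reflect sample-to-sample spread, possibly technical. The submitters' processing notes name build mm10, RSEM 1.2.5, TopHat 1.3.3, FastQC and edgeR 3.0.6 without their roles. Per the file headers, the authors deposited estimated counts (expected counts) and TPM per transcript, and 1 table of log2 ratios, p-values and normalised signal, which entered no test. Strandedness of counting and paired-end use: not given in the sources used here.

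Estimated counts were summed per gene, rounded and tested in edgeR 4.0.16 (R 4.3.3; TMM, filterByExpr with minimum count 10, robust quasi-likelihood fit of 4 group means, 8 residual degrees of freedom), adjusted over all genes tested at 0.05. DESeq2 1.42.0 was an alternative, and transcript shares used diffSpliceDGE. Scripts were tested on simulated data. Named were the 10 genes, Nono, the called genes of 6 pathway lists, 10 preset pathway genes and the 3 genes most like each of 4 members; Pspc1, Pde10a and Akap9 were named after their values were seen. The members and lists were chosen with earlier results of these data known.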

Additional observations from a re-analysis of the deposited data

Results flagged for a closer look

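Of 20 groups of 6 libraries (10 genes in WT and in KO) tested for a single library far from the rest, 2 were picked out, and chance picks out about 1 in 20. Sik3 in WT was highest in WT CT22 replicate 1, at 177 CPM against 153 CPM in the nearest WT library, a gap of 0.689 of the group's range. Crebbp in KO was lowest in KO CT10 replicate 2, at 41.6 CPM against 57.9 CPM in the nearest KO library, a gap of 0.678 of the range. The length index of these libraries was 0.09 and -0.31, and its part in either value was not tested.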

How the results depend on the processing

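The 10 genes were called 0 times in 1250 fits of a gene under an alternative, over the 6 comparisons; the lowest adjusted p was 0.143, for the KO at CT22, and 70 values changed sign, 69 of them within the 95% interval of the reported value. The other was Ep300 at CT22, which changed from 0.29 to -0.016 with the length index as a covariate; the cause was not tested. For KO against WT over both labels, 3 genes were called, against 22 by DESeq2, 10 without a filter on low counts, 1 with the replicate block, 1 without the library of highest choroid plexus markers in each group, 1 without the clock-displaced libraries, 6 with the length index and 1 to 8 leaving out 1 library. At CT10 the count was 1, against 3 by DESeq2, 4 when only the groups compared were fitted and 1 in each fit leaving out 1 library. At CT22 it was 2, against 30 by DESeq2, 1 in each of the block, groups compared, choroid plexus, clock and length settings, and 1 to 4 leaving out 1 library. For CT22 against CT10 it was 0 in WT, against 4 by DESeq2, 2 with only the groups compared, 1 without the clock-displaced libraries and 0 to 1 leaving out 1 library, and 0 in KO, against 1 without the clock-displaced libraries. Pathway genes called over both labels were 1, against 2 by DESeq2 (Sfpq and Pspc1) and 2 with the length index, 0 in the block, groups compared, choroid plexus and clock settings and 0 to 1 leaving out 1 library; at CT22 they were 1, against 4 by DESeq2, 0 in those settings and with the length index, and 0 to 1 leaving out 1 library. Transcripts called were 4, against 1 with the replicate block and 1 to 3 leaving out 1 library, and changed shares 0, against 2 at a minimum of 1 CPM in 3 libraries and 0 to 3 leaving out 1 library. Replicate numbers did not pair the libraries: in 18 pairs of the same number the deviations correlated at -0.24 to 0.33, 4 of them over 0.1, and 4 of 12 libraries were closest to their own number. The fit of only the groups compared does not exist for the difference between CT labels, and was not run there. The 2 settings on clock-displaced libraries and length were chosen after seeing the data. Intervals cover the spread of these libraries only, and Crem, with 41 to 122 counts a library, had the fewest counts.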
